A study of Mus musculus with 2 samples.

Results

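The genes described here encode the proteins that license origins and copy DNA at the replication fork. They are 42 named genes in 10 roles: origin recognition, loading of the helicase, the MCM helicase itself, its activation, polymerase alpha-primase, polymerases delta and epsilon, the sliding clamp and its loader, single-strand binding, Okazaki fragment joining, and cyclin E with its kinase. Members were found by matching the RefSeq accession of each non-control probe to the current symbol, which gave 47 probes for the 42 genes. Of these, 40 genes were measured on both arrays, meaning that at least 1 probe was well above background on each, out of 10517 such genes among 20618 with a usable probe and a symbol.

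The samples were leukaemia cells of the B lineage (B-cell acute lymphoblastic leukaemia, B-ALL) of mice aged 8 weeks, taken from the marrow and sorted with SoNar, a fluorescent sensor of the NADH/NAD+ balance. The SoNar-high population and the SoNar-low population were each hybridised to 1 one-colour Agilent array, and the sample titles call them N-myc-high and N-myc-low. The oncogene or method that started the leukaemia, the genotype of the mice and the number of mice behind each population are not given in the sources used here. With 1 array per population there was no replicate and no test, scan session and population cannot be told apart, and precision is limited by having 2 arrays.

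Before a cell divides, the origin recognition complex, CDC6 and CDT1 place rings of the MCM helicase on DNA in G1, and geminin blocks CDT1 afterwards so that each origin fires once. Cyclin E with CDK2 then helps to recruit CDC45 and the GINS complex to the ring, primase starts each strand, and the polymerases extend it behind the clamp PCNA. Transcription of many of these genes is known to rise towards S phase under E2F factors, and dividing pro-B and pre-B cells, from which B-ALL arises, use the same set. In sorted populations, fewer cells of a kind and less RNA per cell cannot be told apart.

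As a set, the replication genes stood with the median gene of the arrays. Differences below are log2 of the processed signal, scaled to each array's 75th percentile, SoNar-high minus SoNar-low. The median over the 40 measured members was 0.29 and that over all measured genes 0.22, so the members lay 0.07 above it, and 21 members were above and 19 below the median gene (50% of all genes are above by definition). None of the 40 members was at least 2-fold higher on the SoNar-high array, where 2.41% of all measured genes were. Only Cdc6 was at least 2-fold lower, where 4.38% of all measured genes were. At 1.5-fold, 6 members were higher (Rpa1, Prim1, Mcm10, Mcm4, Orc6 and Lig1) and 3 lower (Cdc6, Rpa2 and Gins3), beside 20.4% and 10.2% of all genes. These shares of members are near those of all genes or below them. The 2-fold call of Cdc6 was lost when its dim second probe was averaged in (-0.76) and under median scaling (-0.79), and Rpa2 was also past 2-fold in 5 other scalings.

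The scale set the sign of many values. The median gene moved by 0.57 when arrays were scaled to their median and by -0.30 when scaled to the 75th percentile of probes seen on both, so positions relative to the median gene are given beside the raw sign. Over 8 ways of scaling, 19 members were above 0 in every one, 4 were below 0 in every one (Cdc6, Rpa2, Gins3 and Mcm2), and 17 changed sign. The median gene was itself above 0 except with the 75th percentile of probes seen on both arrays (-0.07) and centring (0). Shares of all genes that kept their sign are not given here, so these counts are not set apart from those of other genes. Relative to the median gene, 18 members were above and 18 below in every scaling, and the exceptions were Orc1, Cdt1, Cdc45 and Gins1. Of the 8 scalings 4 differ only by a constant (the 75th percentile over all probes or over probes seen on both arrays, the array median, and the median gene), so a position relative to the median gene could change only under the others. With the median of each array as the scale, 16 members were at least 2-fold higher and 0 lower, but so were 3380 of all measured genes, against 139 lower.

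**Figure D1:**
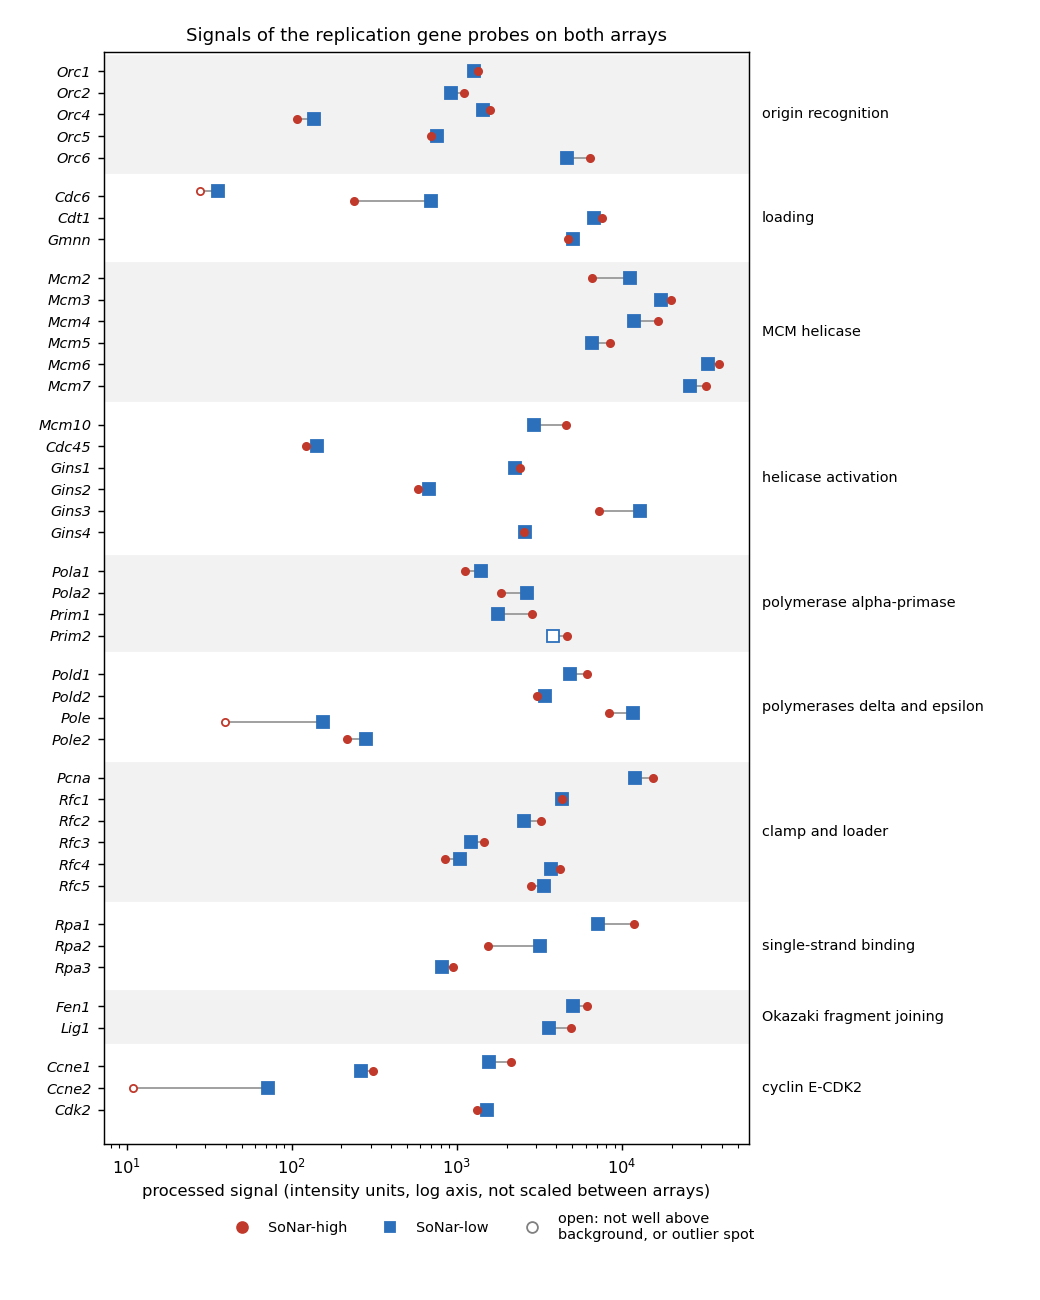
Processed signal of every probe of the 42 genes on the SoNar-high array (circles) and the SoNar-low array (squares), on a log axis in intensity units, grouped by role. Each grey line joins 1 probe on both arrays, open symbols were not well above background or were outlier spots, and signals of different probes cannot be set against each other. The longest lines between filled symbols belong to Cdc6 (237 against 697 units) and Rpa2 (1532 against 3194 units).

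**Figure D2:**
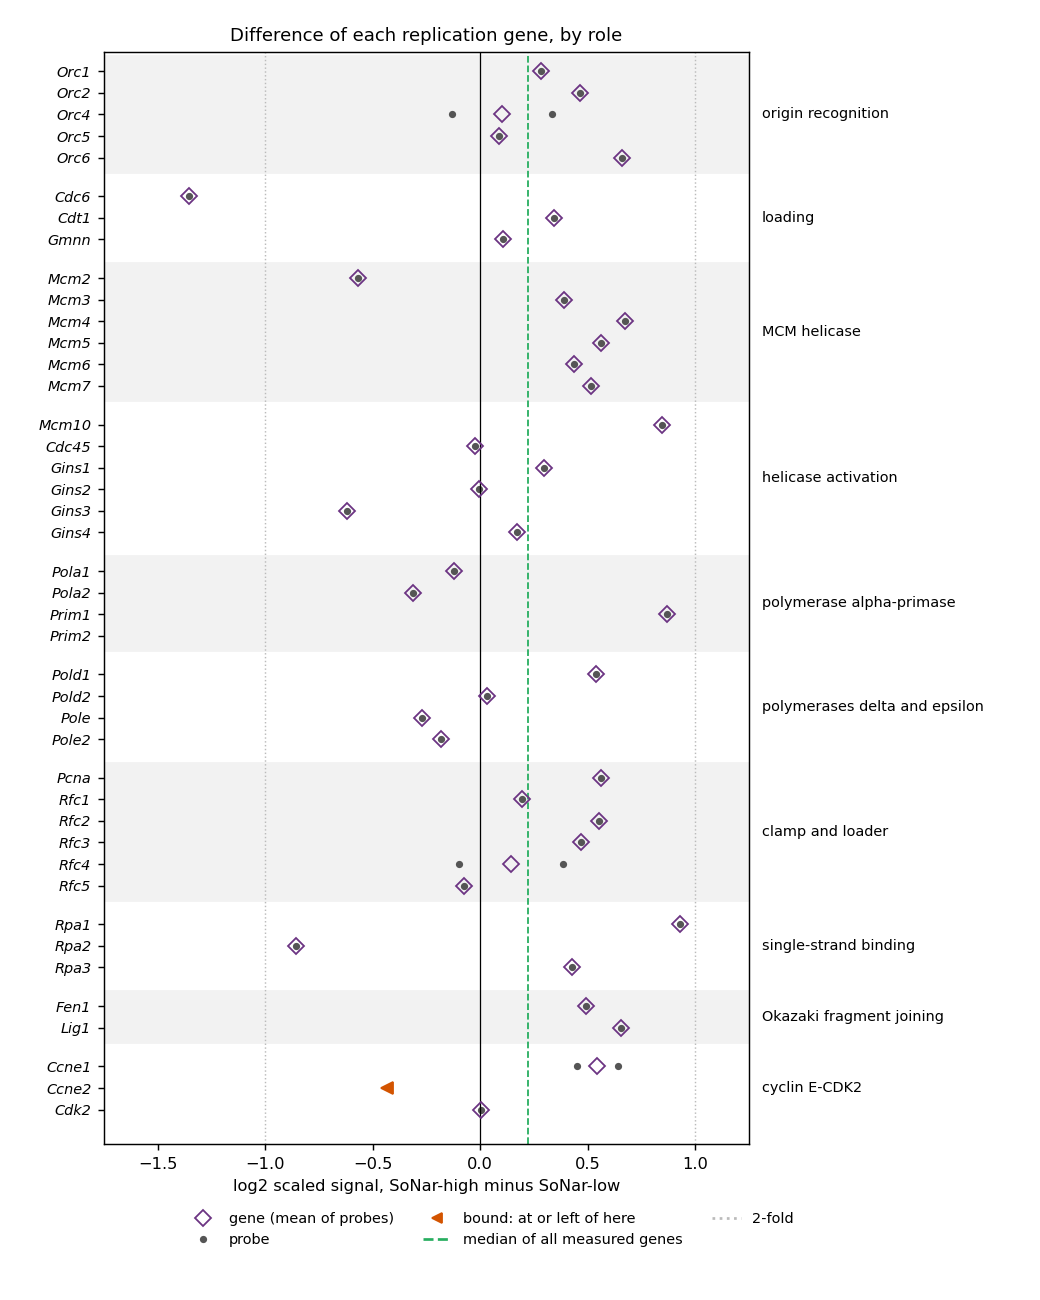
Log2 difference, SoNar-high minus SoNar-low, of each replication gene (diamonds) and its probes (dots), with the median of all measured genes at 0.22 as a dashed line and 2-fold as dotted lines. Only Cdc6 lies past 2-fold; the triangle marks the bound for Ccne2, and Prim2 has no value because its spot was an outlier on the SoNar-low array. The sign of 17 of the values nearest to 0 changes with the scaling.

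The members are known for sharing control elements, so their promoters are shown before their values. RefSeq windows of 300 bases around the gene start (assembly GRCm38.p6) matched 33 of the 42 members. The E2F-type letters searched were TTCCCGC, besides them TTCGCGC, likewise TTGCCGC, plus TTGGCGC, on either strand, and 21 of 33 members (63.6%) held at least 1 of them, against 10.9% of the 27025 genes with a window. A CCAAT box, the letters CCAAT on either strand, stood in 22 of 33 members (66.7%) and in 41.1% of all genes; the TTGG of a reversed box can overlap TTGGCGC. Members' windows were richer in G and C. The median over member genes, each by the median of its windows, was 61.3%, against 52.7% over all single windows. The part of G and C in these shares was not tested. Relative to the median gene, the 21 members with E2F-type letters had a median difference of 0.12 and the 12 without them 0.05, and this difference was not tested. A match is a description of the letters and not a binding site. The windows printed are those of Cdc6, the lowest member, and of Rpa1 and Rpa2, the highest member and the second lowest. Those of Mcm6 and Mcm2, which lay apart within the helicase, are printed too. Mcm6 had the member window with the most matches (5). Mcm5 (0.56) and Mcm7 (0.51), not printed, lay further from Mcm2 than Mcm6 (0.44) did. Capitals mark E2F-type letters.
Cdc6, chr11:98907901-98908200, plus strand: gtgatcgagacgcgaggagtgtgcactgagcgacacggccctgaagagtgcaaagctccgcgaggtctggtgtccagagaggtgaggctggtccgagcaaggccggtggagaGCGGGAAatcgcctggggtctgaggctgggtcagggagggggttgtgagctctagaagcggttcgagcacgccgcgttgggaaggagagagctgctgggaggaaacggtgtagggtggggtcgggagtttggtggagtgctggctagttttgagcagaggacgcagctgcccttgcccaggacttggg
Mcm6, chr1:128359656-128359955, minus strand: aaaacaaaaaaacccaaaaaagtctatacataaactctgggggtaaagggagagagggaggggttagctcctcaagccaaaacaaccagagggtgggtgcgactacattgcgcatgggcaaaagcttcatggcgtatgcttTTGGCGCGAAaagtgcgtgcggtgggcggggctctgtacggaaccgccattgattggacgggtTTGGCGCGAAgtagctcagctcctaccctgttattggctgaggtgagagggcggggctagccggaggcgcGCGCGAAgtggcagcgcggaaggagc
Mcm2, chr6:88898731-88899030, minus strand: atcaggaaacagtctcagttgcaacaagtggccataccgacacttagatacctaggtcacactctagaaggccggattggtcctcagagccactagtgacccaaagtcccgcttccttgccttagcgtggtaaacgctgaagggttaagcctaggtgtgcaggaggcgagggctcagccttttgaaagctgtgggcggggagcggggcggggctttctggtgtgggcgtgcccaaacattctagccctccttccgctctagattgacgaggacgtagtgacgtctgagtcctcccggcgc
Rpa1, chr11:75348334-75348633, minus strand: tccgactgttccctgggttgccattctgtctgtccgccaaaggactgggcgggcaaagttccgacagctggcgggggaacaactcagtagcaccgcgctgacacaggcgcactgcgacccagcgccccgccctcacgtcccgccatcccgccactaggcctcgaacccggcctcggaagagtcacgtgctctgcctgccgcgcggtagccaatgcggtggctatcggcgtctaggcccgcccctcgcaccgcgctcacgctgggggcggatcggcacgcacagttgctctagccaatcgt
Rpa2, chr4:132768110-132768409, plus strand: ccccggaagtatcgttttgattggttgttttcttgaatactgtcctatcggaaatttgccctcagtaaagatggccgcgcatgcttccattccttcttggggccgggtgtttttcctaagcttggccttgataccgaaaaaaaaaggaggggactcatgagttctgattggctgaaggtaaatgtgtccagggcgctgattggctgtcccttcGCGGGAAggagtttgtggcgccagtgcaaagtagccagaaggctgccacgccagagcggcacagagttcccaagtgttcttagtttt
The Mcm6 window held 5 matches in 3 stretches, since TTGGCGC and a reversed TTCGCGC share letters. Cdc6 and Rpa2 held 1 each, a reversed TTCCCGC. Mcm2 and Rpa1 held 0 in these windows.

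The origin recognition complex, which marks replication origins, lay near the median gene. The 5 subunits counted as members had a median of 0.28, with 3 above and 2 below the median gene and none past 2-fold. Orc6, the subunit least tied to the core ring, had 6407 units on the SoNar-high and 4664 units on the SoNar-low array, a difference of 0.66. Orc2 had 1107 and 921 units on the SoNar-high and SoNar-low arrays, a difference of 0.47. Orc1, an ATPase subunit, had 1337 and 1262 units in the same order, a difference of 0.28. Orc6 and Orc2 were above 0 in all 8 scalings, while Orc1 reached -0.03 in the lowest. Orc5 had 696 units on the SoNar-high and 753 units on the SoNar-low array, which became a difference of 0.09 after scaling. Orc4 had probes on either side of 0: 1583 against 1444 units by the brighter (0.33) and 108 against 136 units by the dimmer (-0.13), for a mean of 0.10 with an SD of 0.33 between probes. Orc6 and Orc5 lay 0.57 apart, beside 0.47 between the probes of Orc4, and each of these 5 members but Orc4 rested on 1 probe. A further subunit gene, Orc3, was measured but is not a member. Its 2 probes lay at -0.74 and 0.57, with an SD of 0.93. The mean of Orc3 was -0.09, or -0.31 relative to the median gene.

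Among the loading factors, Cdc6 stood far from Cdt1 and Gmnn. Cdc6, the ATPase that joins the origin complex to recruit MCM rings, had 237 units on the SoNar-high array and 697 units on the SoNar-low array by the probe measured on both. The difference was -1.36, a 2.56-fold difference, and 2.09% of all measured genes lay lower. A second Cdc6 probe was dim, with 27.7 units on the SoNar-high array, where it was not well above background, and 35.9 units on the SoNar-low array. That probe lay at -0.17, and with both averaged Cdc6 was at -0.76 and no longer past 2-fold. Cdt1, which carries the MCM ring to the origin, had 7501 against 6799 units, a difference of 0.34. Gmnn, the gene of geminin, which binds and blocks CDT1, had 4726 against 5047 units, a difference of 0.11. Cdt1 and Gmnn thus lay 0.24 apart, and Cdc6 lay 1.70 below Cdt1.

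The MCM helicase genes lay close together except for Mcm2. MCM2 to MCM7 form 1 ring with 1 copy of each subunit, and 5 of the 6 genes were above 0 in all 8 scalings and above the median gene in all 8. Mcm4 had 16393 units on the SoNar-high and 11803 units on the SoNar-low array, a difference of 0.68. Mcm5 had 8425 against 6557 units (0.56) and Mcm7 32130 against 25858 units (0.51). These 3 subunits spanned 0.16, beside a median SD of 0.15 for a difference between 1 spot on each array. Mcm6 followed with 38825 against 33007 units (0.44) and Mcm3 with 19675 against 17283 units (0.39). The 5 thus lay within 0.29 of each other. Mcm2, whose N-terminal tail also binds histones, lay on the other side of 0, with 6549.8 units on the SoNar-high and 11162 units on the SoNar-low array. Its difference was -0.57, with 10.5% of measured genes lower, and it stood 0.96 under Mcm3, the nearest of the other subunits. Over the scalings Mcm2 ranged from -0.88 to -0.0016, so its sign was at the limit when arrays were scaled to their median. Each of the 6 genes rested on 1 probe printed once, and a probe effect on Mcm2 was not tested.

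The genes that turn the loaded ring into a working helicase lay on both sides of the median gene, with a span of 1.46. Their median was 0.08, with 2 of 6 above the median gene. Mcm10, a scaffold needed to start unwinding, had 4561 units on the SoNar-high and 2918 units on the SoNar-low array, a difference of 0.85 that was above 0 in all 8 scalings. Cdc45, a subunit of the active helicase, was dim, with 122 against 142 units and a difference of -0.03. It changed side of the median gene with the scaling. The 4 GINS genes, whose proteins form a tight complex in equal amounts, did not share 1 difference. Gins1 had 2407 against 2251 units (0.30) and Gins4 2539 against 2591 units (0.17). Gins2 had 583 against 674 units (-0.0066), and these 3 lay on both sides of the median gene. Gins3 had 7281 units on the SoNar-high and 12846 units on the SoNar-low array, a difference of -0.62 that stayed below 0 in all 8 scalings but was -0.05 under median scaling, within the spot-to-spot SD of 0.15. Neither Gins3 nor Mcm2 reached 2-fold in any of the 8.

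Polymerase alpha-primase, which lays down the RNA-DNA primer, gave 3 values that differed by up to 1.18. Prim1, the catalytic primase subunit, had 2834 units on the SoNar-high and 1783 units on the SoNar-low array, a difference of 0.87, and was above 0 in all 8 scalings. Pola1, the catalytic polymerase subunit, had 1122 against 1402 units (-0.12). Pola2, its accessory subunit, had 1845 against 2637 units (-0.31). Both polymerase subunits were thus below the median gene in all 8 scalings, and Prim1 above it. Prim2, the large primase subunit, had an outlier spot on the SoNar-low array and entered no count. With that spot kept it had 4616 against 3817 units and a difference of 0.47.

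The polymerases that extend the strands were mostly below the median gene. Pold1, the catalytic subunit of lagging-strand polymerase delta, had 6109.9 units on the SoNar-high and 4829 units on the SoNar-low array (0.54). Its partner Pold2 had 3038 against 3417 units (0.03). Pole, the catalytic subunit of leading-strand polymerase epsilon, had 8357 against 11593 units by its bright probe (-0.27), and Pole2 had 215 against 281 units (-0.18). Pold1 was the 1 of 4 above the median gene. A second Pole probe had 39.4 units on the SoNar-high array, not well above background, and 155 units on the SoNar-low array. With that dim probe averaged in, Pole was at -1.02 and past 2-fold, which its bright probe did not show.

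The clamp and its loader showed small differences. Pcna, the sliding clamp and a common marker of S phase, had 15373 units on the SoNar-high and 11983 units on the SoNar-low array, a difference of 0.56. Rfc2 had 3221 against 2528 units (0.55) and Rfc3 had 1462 against 1213 units (0.47), both small subunits of the loader. These 3 genes were above 0 and above the median gene in all 8 scalings. Rfc1, the large subunit, had 4299 against 4325 units (0.19), and Rfc5 had 2793 against 3387 units (-0.08). Rfc4 again had probes on either side of 0, at 4219 against 3715 units (0.39) and 847 against 1044 units (-0.10), with a mean of 0.14 and an SD of 0.34. The 5 loader genes thus spread over 0.63, with 2 above and 3 below the median gene.

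The single-strand binding protein RPA held both the highest member and the second lowest. RPA coats unwound DNA as a complex of RPA1, RPA2 and RPA3. Rpa1, the large DNA-binding subunit, had 11768 units on the SoNar-high and 7107 units on the SoNar-low array. Its difference of 0.93 was a 1.90-fold difference, with 96.2% of measured genes below it. Rpa2, the subunit phosphorylated when forks stall, had 1532 units on the SoNar-high and 3194 units on the SoNar-low array, a difference of -0.86. Rpa3, the smallest subunit, had 949 against 813 units (0.43). Rpa1 and Rpa2 therefore differed from each other by 1.79, the widest span in the 10 roles, and each kept its sign in all 8 scalings. Rpa2 passed 2-fold in 5 of the scalings, with values from -1.03 to -1.21.

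The genes that finish Okazaki fragments lay close together. Fen1, the flap nuclease, had 6132 units on the SoNar-high and 5009.8 units on the SoNar-low array (0.49). Lig1, the replicative DNA ligase, had 4926 against 3592 units (0.66). Both were above 0 and above the median gene in all 8 scalings, and they differed by 0.16. Of the kinase genes, Ccne1, the cyclin E that drives entry into S phase, had 2121 against 1566 units by its brighter probe (0.64) and 312 against 263 units by the other (0.45). Its mean of 0.54 had an SD of 0.14, so it was the member with 2 probes in closest accord. Its partner kinase gene Cdk2 had 1324 against 1517 units, a difference of 0.0048. Ccne2, the second cyclin E gene, had 10.99 units on the SoNar-high array, where it was not well above background, against 71.9 units on the SoNar-low array. Against the detection floor of the SoNar-high array, Ccne2 was at least 1.35-fold lower there. Ccne2 was the 1 member seen on the SoNar-low array alone, where 26.4% of genes with a probe were, and the detection floors were 46.4 units on the SoNar-high and 19.4 units on the SoNar-low array.

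Roles differed in how widely their genes were spread. The medians of the roles ran from -0.12 (polymerase alpha-primase) to 0.58 (Okazaki fragment joining), and the span between the highest and lowest gene of a role from 0.16 (Okazaki fragment joining) to 1.79 (RPA). The SD over the 40 members was 0.48 and that over all measured genes 0.57. Within roles the SD was 0.12 for the Okazaki genes, 0.24 for origin recognition and 0.26 for the clamp and loader, 0.36 for polymerases delta and epsilon, 0.38 for the cyclin E and kinase genes, 0.45 for the MCM helicase, 0.48 for helicase activation, 0.63 for polymerase alpha-primase and 0.92 for both the loading and the RPA genes. Roles held 2 to 6 measured genes, so these SDs are rough. The 3 members with several measured probes had SDs between probes of 0.33 (Orc4), 0.34 (Rfc4) and 0.14 (Ccne1), and over 2394 genes with several probes the median was 0.32. The other 37 measured members rested on 1 probe, and none of the members' probes was printed more than once. The probes of Orc4 lay 0.47 apart and those of Rfc4 0.49, so gaps of that size between subunits also occurred within 1 gene.

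Level moved with the difference over all genes, and the members were mostly bright. The relation was not a steady rise. The median difference of all genes was 0.71 in the dimmest step of 0.5 (101 genes, from a scaled log2 level of -3.5). It was -0.20 from a level of -2.5, 0.42 from a level of 3 and 0.13 from a level of 6.5. The value of the dimmest step is bound by the filter, since the scaled detection floor was 0.113 for SoNar-high and 0.041 for SoNar-low. Genes of the lowest mean level could thus count as measured on both arrays only when higher on the SoNar-high array. Of the 40 measured members, 37 lay in the brighter part of the array, beside 5729 of all 10517 measured genes. That part is the brighter 50% of measured probes, and there the members' median was 0.34 and that of all genes 0.39. With a loess curve on the level removed, 21 members were above 0 and 19 below, and the members' median was 0.0077. Members lay on both sides of that curve, with Rpa1 at 0.62, Prim1 at 0.52 and Mcm10 at 0.48 above it, and Pola2 at -0.67 and Pole at -0.57 among those below it.

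**Figure D3:**
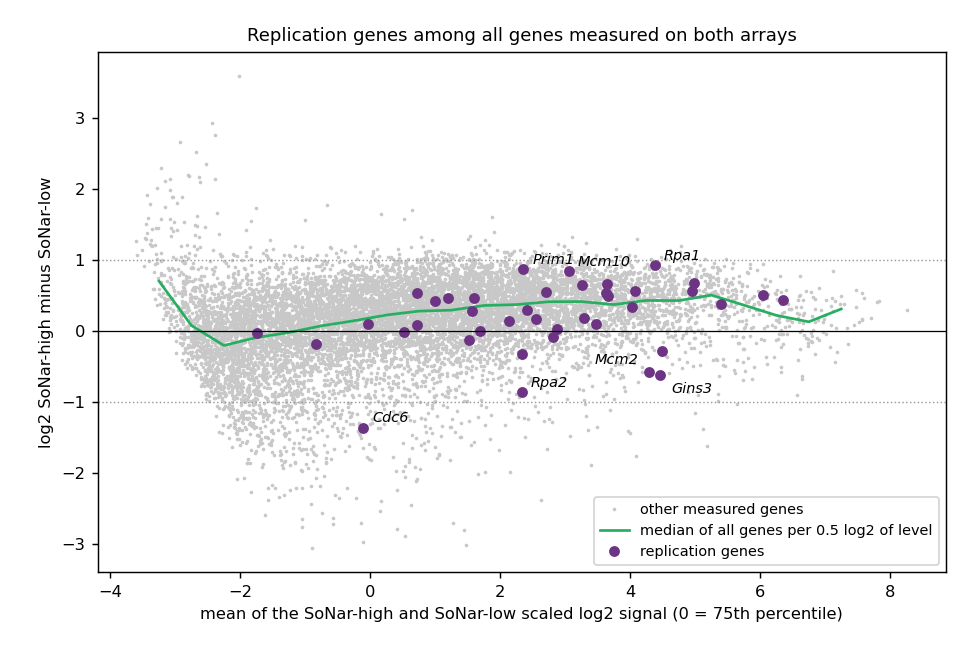
Difference of each gene measured on both arrays (log2, SoNar-high minus SoNar-low) against its mean scaled log2 level, with the 40 replication genes as large dots and the median of all genes in steps of 0.5 as a line. The line starts at 0.71 for the dimmest genes, a value bound by the unequal detection floors of the arrays. It drops to -0.20 at a level of -2.5 and reaches 0.42 at a level of 3 and 0.13 at a level of 6.5. Rpa1, Prim1 and Mcm10 are among the members above the line, and Cdc6, Rpa2, Gins3 and Mcm2 among those below it.

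**Figure D4:**
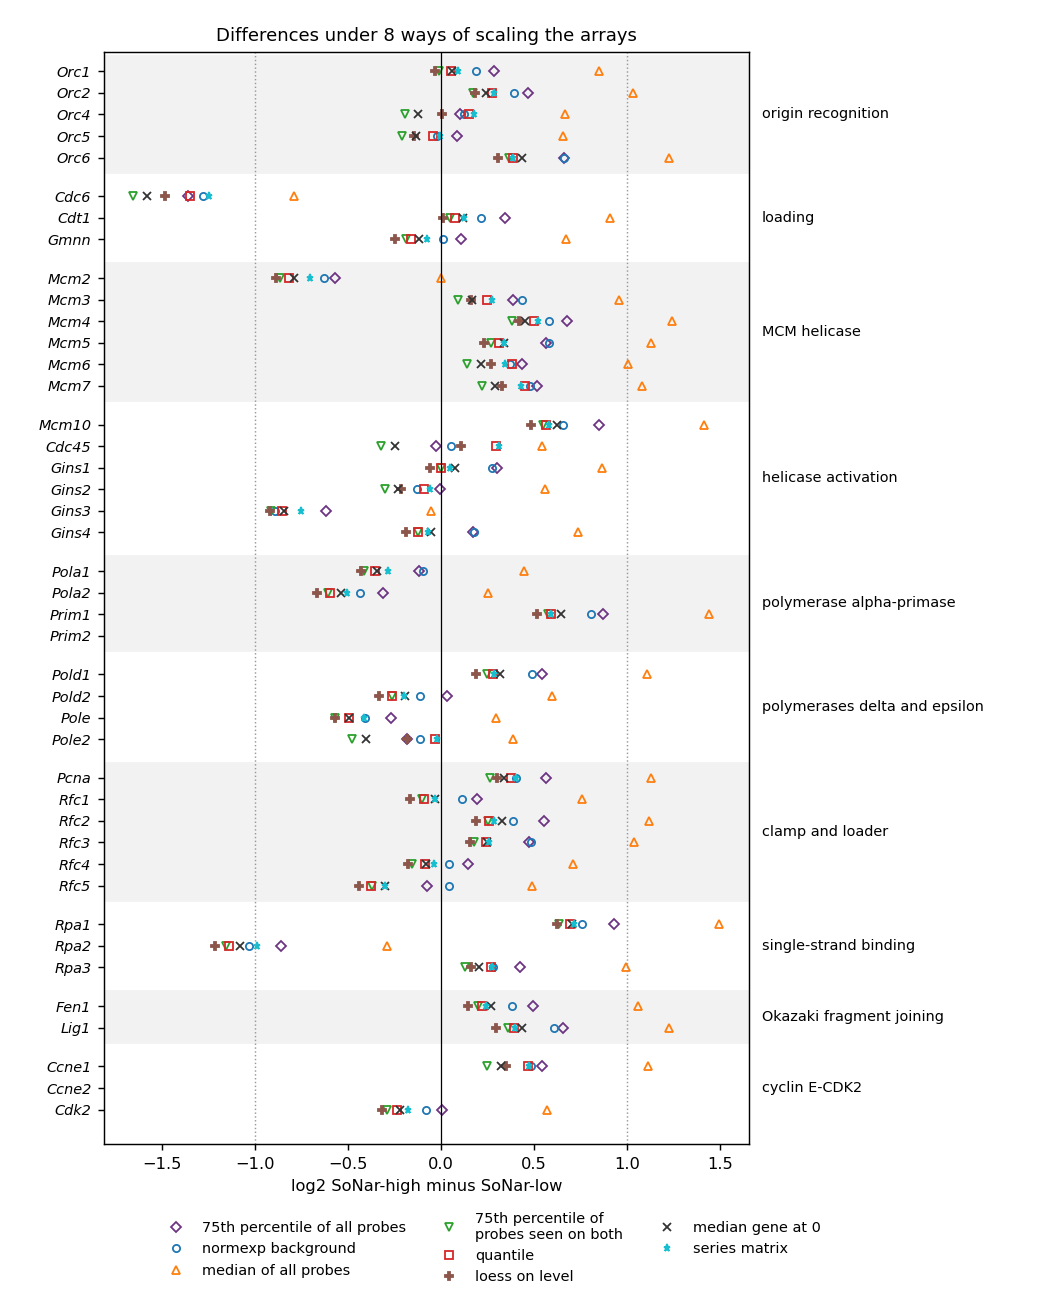
Difference of each measured replication gene (log2, SoNar-high minus SoNar-low) under 8 ways of scaling the arrays, by role, with 2-fold as dotted lines. Scaling to the array median (upward triangles) moves every gene up by 0.57, Cdc6, Rpa2, Gins3 and Mcm2 are below 0 in all 8 and 19 members above 0 in all 8.

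Other genes of DNA replication also stayed within 2-fold. Of 50 such genes outside the 42, all 50 were measured on both arrays and none passed 2-fold either way. Their median was 0.13 (-0.09 relative to the median gene), with 20 above and 30 below the median gene. Furthest up were Atad5, which unloads PCNA (3411 against 2196 units, 0.84), Chtf8, a part of an alternative clamp loader (4122 against 2725 units, 0.80), and Rnaseh2b, a subunit of the nuclease that removes RNA from DNA (10287 against 7007 units, 0.76), all above 0 in all 8 scalings. Furthest down were Dnmt1, the maintenance DNA methyltransferase (2567 against 4658 units, -0.66), Mcm9, a relative of the MCM helicase genes used in repair (136 against 222 units, -0.50), and Fbxo5, an inhibitor of the anaphase-promoting complex (408 against 658 units, -0.49). Of these 3, Mcm9 and Fbxo5 were slightly above 0 under median scaling. Of 10 proliferation markers outside the 42, Cdk1 and Aurkb were at least 2-fold lower, and the other 8 lay within 2-fold with a median of 0.43 over all 10.

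Markers of the labelled cell type were seen on both arrays, with gaps. Of 15 genes listed for the B lineage 11 were measured. Among them were Cd79b (12625 units on the SoNar-high and 14377 units on the SoNar-low array) and Cd79a (440.0 against 379 units). Ptprc, which the list also counts but which is not restricted to B cells, had 1745 against 2335 units. Igll1, Il7r, Rag1 and Rag2 were not well above background on either array. Cd22, an inhibitory receptor of B cells, was the 1 measured B-lineage gene past 2-fold, with 1252 units on the SoNar-high and 3093 units on the SoNar-low array (-1.10). The scaled signals of the B-lineage list summed to 134 for SoNar-high and 106 for SoNar-low, with 6 of 11 genes above and 5 below the median gene. Markers of other marrow cells differed between the arrays. The neutrophil list summed to 45.9 for SoNar-high and 53.8 for SoNar-low, with 8 of 9 measured genes below the median gene. The monocyte-macrophage list summed to 1.54 and 2.49 and the T and NK list to 5.99 and 6.99 in the same order. Each had 3 of 4 measured genes below the median gene and 2 of 4 at least 2-fold lower, beside 4.38% of all measured genes. Of genes with a probe, 3 of 7 monocyte-macrophage and 2 of 8 T and NK genes were well above background for SoNar-low alone. The share over all genes with a probe was 26.4%. In the T and NK list Lck had 1490 against 858 units (1.00), while Cd3e (-1.20) and Cd4 (-1.66) were the genes past 2-fold. The erythroid list summed to 56.7 for SoNar-high and 33.0 for SoNar-low, through Hemgn, while its other 2 measured genes were at least 2-fold lower. Of its 6 genes with a probe, 2 more were detected for SoNar-low but not for SoNar-high, beside the same 26.4%. Cd3d and Klrb1c were not well above background on either. The part of such cells in the members' differences was not tested.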

How the data were processed

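Cy3-labelled RNA of 1 SoNar-high and 1 SoNar-low sample was hybridised, per the labels' protocols, to an array of its own. The deposited scanner files hold background-subtracted intensity per spot, not scaled between arrays, from Agilent Feature Extraction 11.0.1.1 per the file headers (the submitters' processing notes name 9.1). The authors deposited a series matrix of log2 values whose scaling is not stated and whose medians are equal; it served as an alternative.

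Control and outlier spots were left out and spots of a probe averaged (39085 probes). Log2 signals were taken relative to each array's 75th percentile (409 intensity units for SoNar-high, 470.2 for SoNar-low), and spots well above background made up 44.8% and 72.9%. RefSeq accessions were matched to symbols through a GRCm38 table, used for names only because the array design names mm9: 27115 probes matched 20618 genes. Differences of a gene's probes that were well above background on both arrays were averaged. All 42 members were named by rule, with the 3 highest and 3 lowest of the other replication genes and B-lineage markers, of which 1 is not reported here; further genes were named after their values were seen. The members and lists were chosen with earlier results of these data known. Alternatives were normexp (offset 50, limma 3.58.1 in R 4.3.3; median spot signal), other scalings, loess (span 0.3), filters on dim probes, probe rules, kept outlier spots, the series matrix, fold thresholds and subsets of members. The gene step was tested on simulated data. Python 3.11.15 with pandas 2.3.3 and statsmodels 0.14.6 was used.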

Additional observations from a re-analysis of the deposited data

How the results depend on the processing

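The members' median relative to the median gene (0.07) was 0.24 with no filter on dim probes and -0.086 with quantile normalization, and lay between -0.08 and 0.19 under every other alternative. Median scaling, the 75th percentile of probes seen on both arrays and centring could not move it, since they shift every gene alike, and its sign turned under normexp, quantile normalization, loess, the series matrix, the brighter 50% of probes and the 3 members with several probes. The cause was not tested. No member was at least 2-fold higher except under median scaling (16) and, at a 1.5-fold threshold, 6. The count at least 2-fold lower (1, Cdc6) became 2 with Rpa2 under several settings. These were normexp, the 75th percentile of probes seen on both arrays, quantile normalization, loess and centring on the median gene. Over all 10517 measured genes the count was 240, 851, 391, 531 and 741 in that order, against 461 with the 75th percentile of all probes. With no filter on dim probes the members' count became 2 as well, beside 2542 of 20618 genes. These 2 members were Pole and Ccne2, both through probes that were dim on the SoNar-high array. The members' count was 0 under median scaling, with the brighter 50% of probes (which leaves out Cdc6), and without Cdc6. It was also 0 over the 3 members with several probes and at 3-fold, and 3 at 1.5-fold. With probes called above background by the negative controls (3 SD) the members' count stayed 1, beside 1078 of 13760 genes, but the gene was Pole. Reversal was counted only for members past 2-fold with the 75th percentile of all probes, which was Cdc6 alone, and Cdc6 did not reverse. Over the 8 scalings 17 of the 40 members changed sign. Of 517 values of single members under the alternatives, 289 stayed within the spot-to-spot SD and 228 moved past it. Both counts were partly fixed by the settings. For the 37 members with 1 measured probe, taking the brightest or median probe returned the same value. Median scaling, the 75th percentile of probes seen on both arrays and centring shifted every member by 0.57, -0.30 and -0.22, each past that SD. These counts therefore do not measure how firm the values are. No paired analysis was possible because each population has 1 array. Differences of dim probes are limited by the unequal detection floors.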
